A study of Mus musculus with 29 samples.

Results

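PU.1 and IRF8 are transcription factors of the myeloid lineage, and the regions described here had PU.1 in microglia of wild-type mice and no reproducible IRF8 in adult microglia of a reporter strain. They were chosen from the peak lists themselves. Peaks of the WT PU.1 libraries were merged, and a merged region with a peak in both libraries was a consensus region. A region was kept when it overlapped no region with an IRF8 peak in at least 2 of the 3 adult microglia IRF8 libraries. Of 5359 WT PU.1 consensus regions, 676 (12.6%) met this rule, and the other 4683 overlapped 1 or more of 16935 adult IRF8 consensus regions. The rule used the WT PU.1 and adult IRF8 lists, so values from these lists are given as description, and tests were made on the other libraries. The number of regions depends on single libraries. It was 1665 without adult IRF8 replicate 1 and 1874 without replicate 2, when both remaining IRF8 lists had to hold a peak. It was 3330 with WT PU.1 replicate 2 alone and 6228 with replicate 1 alone.

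PU.1, encoded by Spi1, is an ETS-family factor that binds purine-rich sites and opens chromatin in macrophages and microglia. IRF8 binds DNA poorly by itself and is known to join PU.1 on composite ETS-IRF sites, or to bind interferon-response-type sites. PU.1 also binds sites of its own, and H3K4me1 marks enhancers and their flanks, while H3K27ac marks active enhancers and promoters.

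The profiles were made by CUT&RUN, in which an antibody brings micrococcal nuclease to the bound protein and the released fragments are sequenced. All mice were female. PU.1, H3K27ac and H3K4me1 were profiled in sorted microglia of WT and IRF8KO mice of 3 months, with 2 libraries per genotype and antibody. IRF8 was profiled through a GFP antibody in mice of the IRF8-EGFP strain, so PU.1 and IRF8 values come from different strains. There were 4 libraries of P9 microglia, 3 of P14 microglia, 3 of adult microglia, whose label gives 3 months, and 3 of peritoneal macrophages, which the titles name as such although their source label reads as for microglia. The labels do not give the form of the Irf8 deletion, and nothing states that replicates came from separate animals, so p-values measure only the spread between libraries. The titles label replicates 1 and 2 of adult IRF8 and of macrophage IRF8 as batch 1 and replicate 3 of each as batch 2. The adult IRF8 rule could therefore be met within batch 1 alone. The submitters state that 4 of 7 P9 libraries and 2 of 3 IRF8KO H3K27ac libraries were provided. Per the file headers, libraries held 7250496 to 24705885 fragments, and the lists held 1399 to 189351 entries. At 20 homeostatic microglia genes, such as P2ry12 and Tmem119, 49 PU.1 regions lay in the gene or had its start as the nearest, and 0 lay at listed genes of neurons, oligodendrocytes, B cells, T cells or neutrophils. Astrocyte genes had 3 PU.1 regions, and endothelial genes also had 3.

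Sequences of named regions are shown first, because the regions were defined by PU.1 and each holds a match to its site. Each sequence is 88 bases of GRCm38.p6 (RefSeq; the assembly of the files' build mm10). It is written 5′ to 3′ on the strand that carries the PU.1-type motif GAGGAAGT, in capitals. Of these, the first 4 were listed in neither IRF8KO PU.1 library: Fam155a chr8:9185346-9185433 (minus strand), Tmprss11f chr5:86541078-86541165 (minus strand), Camk2d chr3:126609829-126609916 (plus strand) and Fzd10 chr5:128617485-128617572 (minus strand).
Fam155a: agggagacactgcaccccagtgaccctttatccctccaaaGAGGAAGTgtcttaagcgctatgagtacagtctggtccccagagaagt
Tmprss11f: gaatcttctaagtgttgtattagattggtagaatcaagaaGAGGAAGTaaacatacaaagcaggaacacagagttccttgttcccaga
Camk2d: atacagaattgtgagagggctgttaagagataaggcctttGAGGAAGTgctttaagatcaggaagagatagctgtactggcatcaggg
Fzd10: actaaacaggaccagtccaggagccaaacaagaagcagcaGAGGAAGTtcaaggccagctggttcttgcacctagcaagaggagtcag

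The next 4 were listed in both IRF8KO PU.1 libraries and in none of the 13 IRF8 libraries: Arntl chr7:113197308-113197395 (plus strand), Nenf chr1:191312783-191312870 (plus strand), BC048562 chr9:108443488-108443575 (plus strand) and Khdrbs3 chr15:69078162-69078249 (plus strand).
Arntl: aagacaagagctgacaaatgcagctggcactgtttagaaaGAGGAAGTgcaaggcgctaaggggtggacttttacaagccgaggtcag
Nenf: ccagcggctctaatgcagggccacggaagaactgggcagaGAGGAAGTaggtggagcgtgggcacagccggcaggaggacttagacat
BC048562: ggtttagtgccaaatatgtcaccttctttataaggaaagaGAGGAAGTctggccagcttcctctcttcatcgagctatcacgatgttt
Khdrbs3: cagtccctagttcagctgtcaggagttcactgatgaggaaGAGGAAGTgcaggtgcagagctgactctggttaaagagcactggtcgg

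The last pair holds the strongest of the 676 regions, at Mb21d2, and a region beside the start of Wdr34 whose PU.1-type motif runs on into a composite ETS-IRF match GGAANNGAA, also in capitals: Mb21d2 chr16:28911621-28911708 (minus strand) and Wdr34 chr2:30048911-30048998 (plus strand).
Mb21d2: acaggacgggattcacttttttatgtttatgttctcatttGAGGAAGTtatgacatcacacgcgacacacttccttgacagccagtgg
Wdr34: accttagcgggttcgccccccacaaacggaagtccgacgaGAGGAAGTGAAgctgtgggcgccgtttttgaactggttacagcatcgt

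The letters next to the motif were counted over all regions with a PU.1-type match within 100 bp of the centre. A match was present in 116 of the 676 regions without IRF8 (17.2%) and in 639 of the 4683 with IRF8 (13.6%). The base just before the motif was A in 66.4% of the 116 and in 49.5% of the 639, as in the regions at Fam155a and Arntl above. The run GAA directly after the motif, which makes it part of a composite match, followed in 1 of the 116 (0.862%) and in 25 of the 639 (3.91%). Both sets had the motif at a median of about 40 bp from the centre (41 and 40 bp). These are counts over regions, which are not replicates, and no test was made on them.

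At the region centre the composite motif was less common in regions without IRF8, and most other motifs had similar shares. Motifs were searched on both strands within 100 bp of the centre, and each PU.1-type match also holds the ETS core GGAAGT. The ETS core was found in 40.7% of the regions without IRF8 and in 40.1% of those with IRF8, against 9.1% and 11.2% in windows of equal length 1 kb away. The composite ETS-IRF motif was found in 49 regions without IRF8 (7.25%), close to the 6.14% of their windows 1 kb away. In regions with IRF8 it was found in 642 (13.7%), against 6.15% at 1 kb. Weighting those regions to the same distribution over 10 strata of PU.1 peak strength gave 13.2%. The interferon-response-type motif GAAANNGAA was in 5.92% and 8.33%, against 6.88% and 6.64% at 1 kb. For other families the shares at the centre were C/EBP TTGCNNAA 10.5% and 9.87%, RUNX TGTGGTT 5.33% and 5.25%, AP-1 TGANTCA 4.59% and 5.87%. The E-box CACGTG was in 2.81% and 3.05%, the GC box GGGCGG in 6.95% and 8.95%, the CCAAT box CCAAT in 20.1% and 22.8%, and a CTCF-type motif in 1.18% and 0.833%.

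The window matters for these shares. At the summit of the region's peak in WT PU.1 replicate 1, the PU.1-type motif was in 8.73% of regions without IRF8 and in 6.21% of those with IRF8, less than at the centre. The composite motif was there in 7.4% and 8.71%, so the gap between the sets was smaller than at the centre. The C/EBP motif was there in 11.8% and 8.71%, a wider gap than that of the composite motif. Over whole regions, which were wider where IRF8 was present, the composite motif was in 23.1% and 36.6%, and C/EBP in 28.8% and 30.4%.

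**Figure D1:**
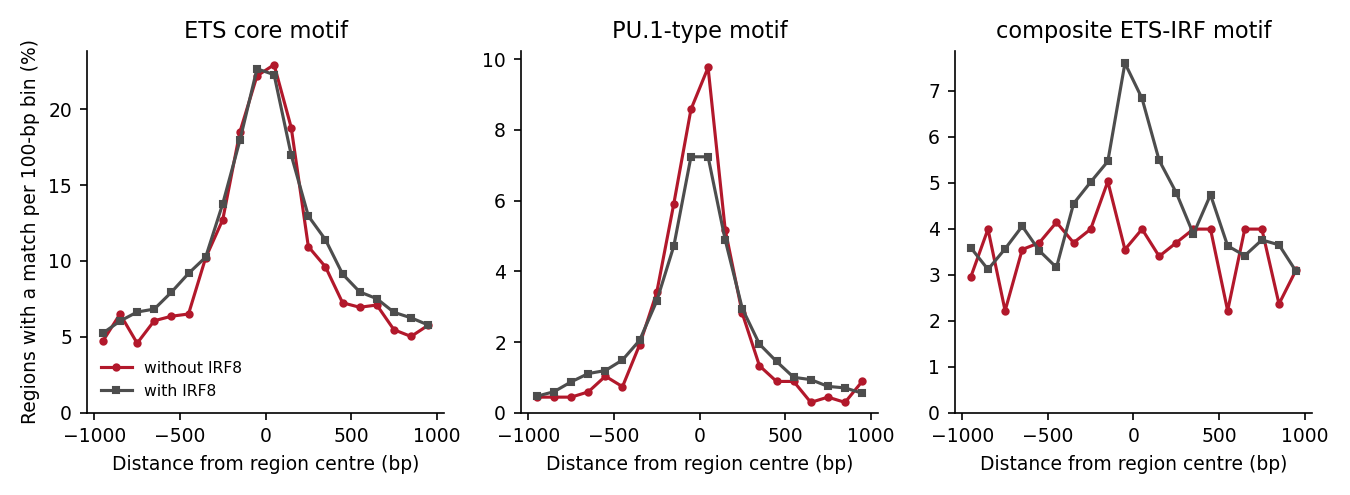
Share of regions with a motif match (y axis, %) in 100-bp bins by distance from the region centre (x axis, bp), for 676 WT PU.1 regions without adult IRF8 consensus (red circles) and 4683 with it (grey squares). ETS core and PU.1-type matches peak at the centre in both sets, and the composite motif peaks at 7.6% in the bin before the centre with IRF8 and stays at 2.22 to 5.03% in all bins without IRF8.

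The regions were on the whole weaker and narrower PU.1 peaks. Peak strength was the mean over both WT libraries of the percentile of the authors' −log10 p within each list. Its median was 52.2 for regions without IRF8 and 70.8 for regions with it. The authors' fold enrichment had a median of 6.03 and 4.75 in WT PU.1 replicates 1 and 2, against 7.68 and 5.52. The median width was 559 bp against 706 bp. With all PU.1 regions cut into 10 strata of equal size by strength, 27.1% of the weakest stratum had no adult IRF8 consensus, and 2.43% of the strongest had none (13 of 535). Few lay next to IRF8 regions. The median gap to the nearest adult IRF8 consensus region was 19865 bp, and 21 of 676 had one within 1 kb. At the limit of the rule, the closest region of the set lay 239 bp from an IRF8 consensus region, and the smallest overlap that counted as IRF8-bound was 44 bp.

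**Figure D2:**
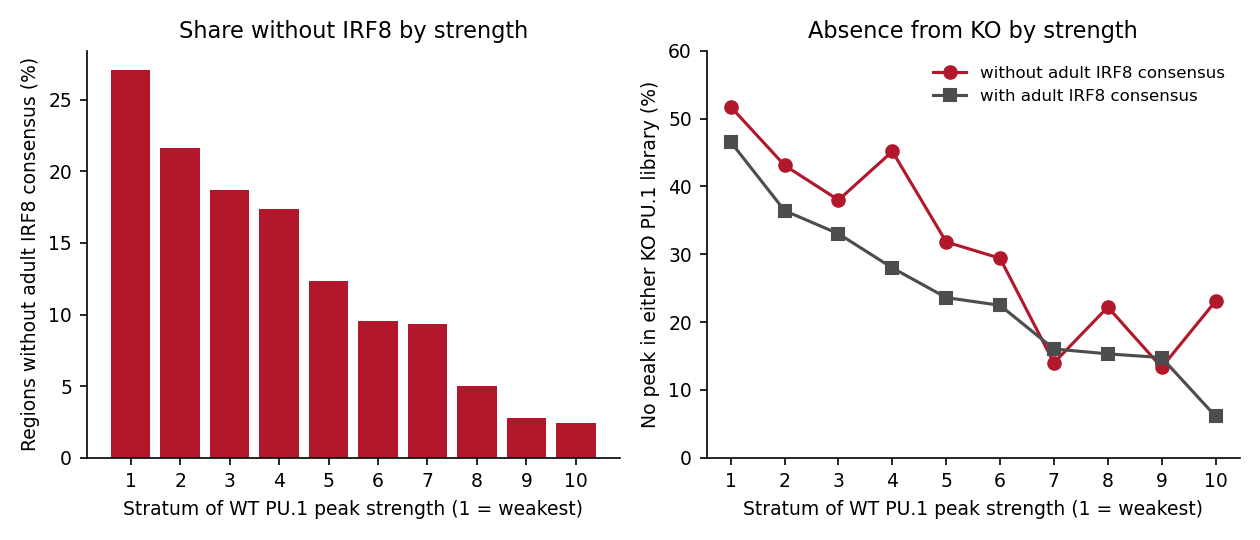
Left, share of WT PU.1 regions without adult IRF8 consensus (y axis, %) by stratum of WT PU.1 peak strength (x axis, 10 strata, 1 = weakest), falling from 27.1% to 2.43%. Right, share with no peak in either IRF8KO PU.1 library (y axis, %) in the same strata for regions without (red circles) and with IRF8 (grey squares), where strata 9 and 10 hold only 15 and 13 regions without IRF8.

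Most regions lay away from promoters. The centre was in an intron in 376 regions (55.6%; 52.2% of all 5359), intergenic in 233 (34.5%; 35.7% of all), in a UTR exon in 35 (5.18%; 6.42% of all) and in another exon in 32 (4.73%; 5.67% of all). A transcription start of GENCODE lay within 1 kb of the centre in 122 of 676 (18.05%; 26.1% of all), and in 27.3% of the regions with IRF8. The median distance to a start was 7275 bp, against 4671 bp with IRF8. A start was over 10 kb away for 272 regions (40.2%; 33.7% of all) and over 50 kb away for 38 (5.62%; 4.78% of all). The regions were spread over 601 genes outside the cluster on chromosome 5 described next, of which 32 had more than 1 region.

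A cluster of 40 of the 676 regions lay at chr5:14906714-15707589 (mm10), among predicted genes and members of the Speer family such as Speer4e. All 40 PU.1 regions of that stretch belonged to the set, and it held 0 adult IRF8 consensus regions. They were wide, with a median of 2272 bp, and 35.1% of their bases were repeat-masked (median). Of these, 35 were listed in both IRF8KO PU.1 libraries, 4 in 1 and 1 in neither. H3K4me1 was listed at all 40 in both WT libraries, while H3K27ac was listed at 0 in WT replicate 1 and 10 in replicate 2. In the IRF8KO libraries H3K27ac was listed at 12 and 20 of the 40, above both WT values, which is opposite in direction to the 676 regions as a whole. An IRF8 peak of any stage was missing at 37. The sources used here do not say how reads that match several near-identical copies were placed, so single regions of the cluster are uncertain. Some values without this cluster are given below. The set also held 3 regions on chromosome Y, although all mice were female.

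Single IRF8 lists showed how far absence of a consensus is absence of any IRF8 peak. Of the 676 regions, 254 had no peak in any adult IRF8 library (37.6%; 4.74% of all 5359, fixed in part by the rule). A further 418 had a peak in exactly 1 (61.8%; 8.36% of all), and 4 overlapped peaks of 2 libraries that did not form a consensus region (0.592%; 86.9% of all had 2 or 3). Adult replicate 2, the deepest with 24705885 fragments, listed 350 (51.8%), against 37 (5.47%) in replicate 1 with 7510600 fragments and 39 (5.77%) in replicate 3 with 7250496. Of the regions with IRF8, adult replicates 1, 2 and 3 listed 95.9%, 99.4% and 77.5%, a gap that the rule fixes in part. The 350 peaks of replicate 2 lay at a median percentile of 47.7 within that list and a fold of 4.89. Its peaks over PU.1 regions with IRF8 consensus lay at 86.1 and 9.29. Of the 418 regions in exactly 1 adult list, 348 were in that of replicate 2, and 35 each in those of replicates 1 and 3.

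In libraries that the rule did not use, IRF8 was also rarer at these regions. The P9 libraries listed 0.444%, 0%, 1.48% and 1.18% of the 676, a mean of 0.777% ± 0.677 (SD, n = 4). The P14 libraries listed 8.28%, 33.7% and 8.88%, a mean of 17.0% ± 14.5 (SD, n = 3). The macrophage libraries listed 25%, 19.97% and 6.51%, a mean of 17.2% ± 9.56 (SD, n = 3). All P9 values were below all P14 and macrophage values, while P14 and macrophage values overlapped. The PU.1 regions with adult IRF8 were listed in 15.99 to 26.7% at P9, 60.9 to 90.2% at P14 and 23.3 to 68.5% in macrophages. In each of these 10 libraries the share was lower without adult IRF8, with a mean difference of -34.5 percentage points. An exact two-sided sign-flip permutation over the 10 libraries gave p = 0.00195 (adjusted p = 0.0176 over 9 tests by Benjamini-Hochberg). That is the smallest p the test can give, and any result of 1 sign in all 10 libraries reaches it. The 10 libraries pool unlike conditions. The differences were -14.8 to -25.3 points at P9, -52.1 to -58.8 at P14 and -16.7 to -43.5 in macrophages. The mean difference was -28.1 points after weighting to equal PU.1 strength and -14.9 points with lists cut to equal length. As deposited, the difference had the same sign in 10 of 10 libraries.

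P14 libraries listed 16.2 points more of the 676 regions than P9 libraries (exact permutation, p = 0.0286, the smallest this design allows; adjusted p = 0.0857). Macrophage libraries listed 16.4 points more than P9 (p = 0.0286 in the exact permutation test, adjusted p = 0.0857). Neither passed adjustment. P9 lists were short, and with all 10 lists cut to the length of the shortest, P14 minus P9 was -0.345 points (p = 0.371, exact permutation) and macrophages minus P9 0.493 points (p = 0.2). P14 replicate 2 held a large part of the P14 value, which was 7.8 points above P9 without it. Macrophages and P14 differed by 0.197 points (p = 1, exact permutation), and the sign turned when P14 replicate 1 or 3 or macrophage replicate 1 or 2 was left out. Within macrophage batch 1 the difference from P9 was 21.7 points and within batch 2, which is 1 library, 5.73 points.

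**Figure D3:**
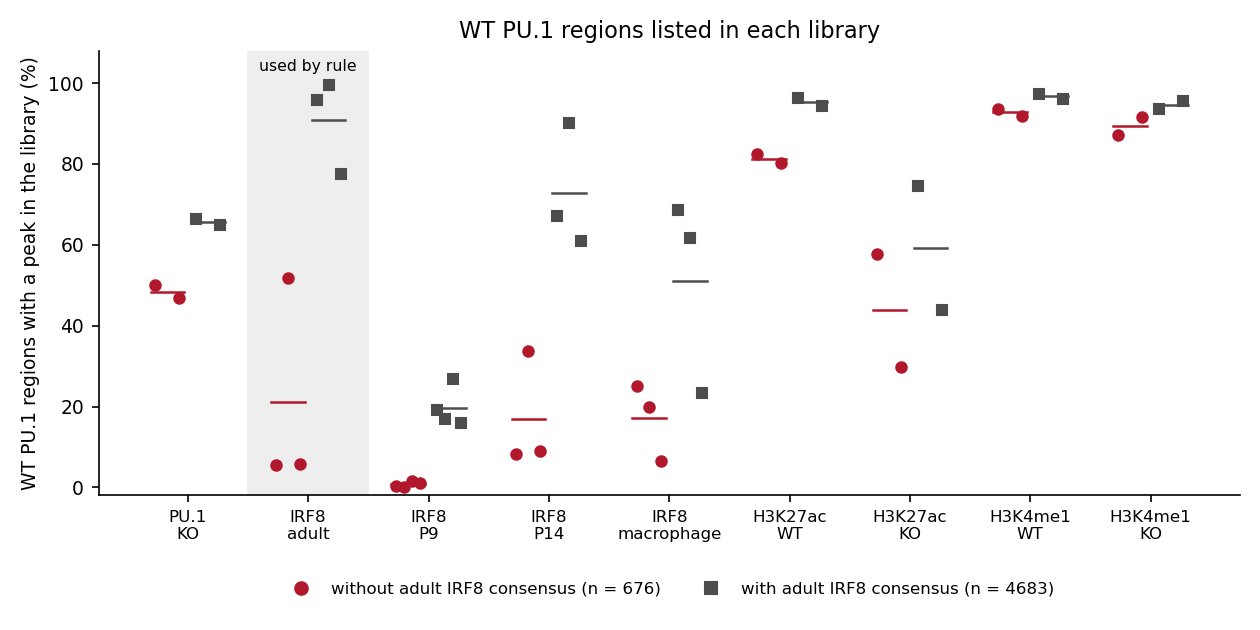
Share of WT PU.1 regions with a peak in each library (y axis, %) by library group (x axis), for 676 regions without adult IRF8 consensus (red circles) and 4683 with it (grey squares); each point is 1 library and each line a group mean. The red points lie below every grey point in the IRF8KO PU.1, P9, P14, WT H3K27ac, WT H3K4me1 and IRF8KO H3K4me1 groups. The shaded adult IRF8 values were used by the rule.

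Over all stages and macrophages, 162 of the 676 regions were in none of the 13 IRF8 lists (24.0%; 3.02% of all 5359), and 125 of these lay outside the chromosome 5 cluster. A P9, P14 or macrophage list held 378 (55.9%; 91.7% of all). A P9 list held 17 (2.51%; 32.8% of all). A P14 list held 269 (39.8%; 86.2% of all), and 69 were in 2 or more (10.2%; 66.7% of all). A macrophage list held 217 (32.1%; 69.4% of all), and 106 were in 2 or more (15.7%; 53.1% of all). Among the 217, 36 were listed in macrophages and in no microglia IRF8 library of any stage (5.33%; 0.672% of all, where a region with adult IRF8 cannot be counted). The highest number of lists was 8 of 13, in 1 region.

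**Figure D4:**
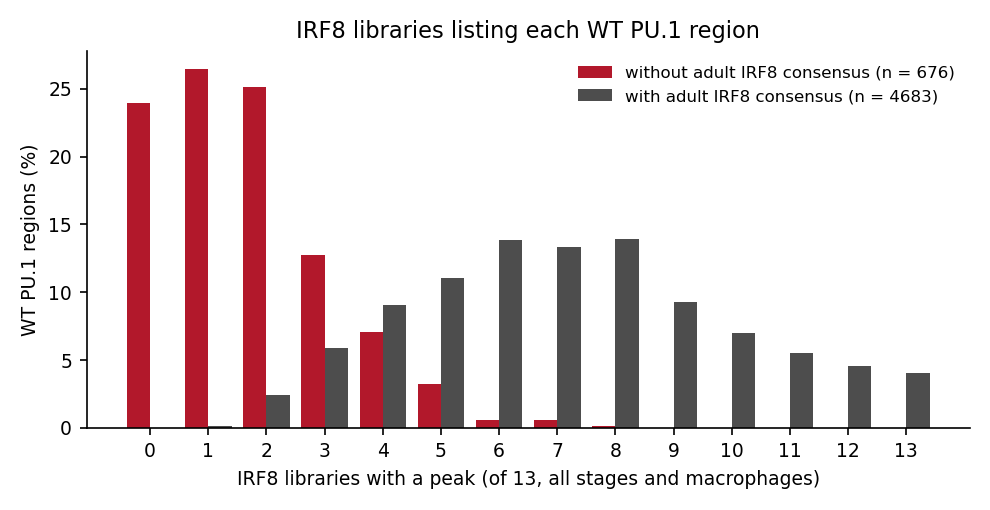
Share of WT PU.1 regions (y axis, %) by the number of the 13 IRF8 libraries that list them (x axis), without (red) and with (grey) adult IRF8 consensus. Most red bars lie at 0 to 3 libraries, with 162 regions at 0, and the adult lists that enter the count were used by the rule.

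Many of these PU.1 peaks were missing from the IRF8KO lists, at a higher share than PU.1 peaks with IRF8 in each library. WT PU.1 replicates 1 and 2 held 14057 and 9490 regions and their consensus 5359, so WT lists also missed many peaks of each other. No WT PU.1 list outside the rule was at hand as a baseline, and the part of such list disagreement in the absence was not tested. IRF8KO PU.1 replicate 1 listed 339 of the 676 (50.1%) and replicate 2 listed 316 (46.7%), against 66.4% and 64.9% of the regions with IRF8. Neither list held 259 (38.3%; 25.1% of all 5359), exactly 1 held 179 (26.5%; 22.8% of all), and both held 238 (35.2%; 52.1% of all). In regions with IRF8 neither list held 23.2% and both held 54.5%. The difference in the share absent from both lists was 15.1 points and had the same sign in 2 of 2 knockout libraries (16.3 and 18.1 points), where an exact sign-flip test cannot give less than p = 0.5. PU.1 strength went with absence in both sets: regions in neither knockout list had a median strength of 46.6 and those in both 59.2. Against regions with IRF8 weighted to equal strength the difference was 7.1 points. It was 4.85 points with peaks of −log10 p of at least 10 only. Without the chromosome 5 cluster 40.6% of 636 regions were in neither list and 31.9% in both. The difference was 7.54 points without adult IRF8 replicate 1 and 7.87 without replicate 2. With WT PU.1 replicate 2 alone defining the regions, 77.3% without IRF8 and 31.8% with IRF8 were in neither knockout list, a difference of 45.5 points. With replicate 1 alone the shares were 84.1% and 38.4%, a difference of 45.7 points. WT and IRF8KO lists were called at q of 0.01 for replicate 1 and 0.05 for replicate 2, per the file headers.

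The 10 strongest regions in neither knockout list included those at Fam155a, an auxiliary subunit gene of a sodium leak channel, and Tmprss11f, a serine protease gene. The intergenic region nearest Fam155a, chr8:9185129-9185823 (mm10), had a fold enrichment of 17.7 and 12.4 in the WT libraries. The Tmprss11f region in an intron, chr5:86540674-86541370, had 14.7 and 10.0. Both were marked by H3K27ac in 2 of 2 WT and 0 of 2 IRF8KO libraries, and 1 adult IRF8 list held the Fam155a region while none of the 13 held the Tmprss11f region. Intronic regions of Camk2d, a calmodulin-dependent kinase, had 18.2 and 6.55, and of Agpat3, a phospholipid acyltransferase 305 bp from its start, 11.1 and 8.97. An intergenic region near Lpcat1, a lysophospholipid acyltransferase, had 11.6 and 11.4, and one near Fzd10, a Wnt receptor, had 7.22 and 10.7. H3K27ac was listed in 1 of 2 IRF8KO libraries at Camk2d, Agpat3 and Lpcat1, and in 0 of 2 at Fzd10. The others of the 10 were at Sec11a, a signal peptidase subunit, in B530045E10Rik with Dusp6 as the nearest protein-coding start, and near Gm3667 and Zc3h3. The Gm3667 region lies between other regions of the set at predicted genes, such as Gm3383 and Gm3512, also in neither knockout list. Near-identical copies were not checked there. All 10 had H3K27ac in both WT libraries, as did 90.3% of all PU.1 regions.

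Of the 238 regions in both knockout lists, 52 were also in no IRF8 list, and 32 of these lay in the chromosome 5 cluster. By the rule a region with adult IRF8 cannot be counted here. The 52 were 32.1% of the 162 regions in no IRF8 list, and both knockout lists held 35.2% of the 676. Outside the cluster these shares were 16% of 125 and 31.9% of 636. The strongest of the 52 was an intergenic region of 295 bp nearest Rnase2a, a ribonuclease gene, at chr14:51288266-51288560. Its fold enrichment was 17.3 and 4.1 in WT and 7.54 and 6.67 in IRF8KO libraries, no H3K27ac or H3K4me1 library listed it, and it held no ETS core. A region near Arntl, the circadian clock factor BMAL1, had 13.6 and 6.55 in WT and 14.3 and 13.0 in IRF8KO libraries. H3K27ac was listed there in both WT libraries and in neither IRF8KO library. An intronic region of Hmcn1, a matrix protein, had 18.2 and 6.03 in WT and 10.2 and 8.31 in IRF8KO. One in Snd1, a nuclease-domain protein, had 10.8 and 6.9 in WT and 10.9 and 8.8 in IRF8KO. Both had H3K27ac and H3K4me1 in all 4 libraries of each mark. Regions at Nenf, a secreted heme-binding protein, at BC048562 near Klhdc8b, and at Khdrbs3, an RNA-binding protein, had H3K27ac in every list but that of IRF8KO replicate 2. The region beside Wdr34, a dynein subunit, was in no H3K27ac list and in 1 of 4 H3K4me1 lists. Chst9, a sulfotransferase, and Gm21149 in the cluster completed the 10.

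**Figure D5:**
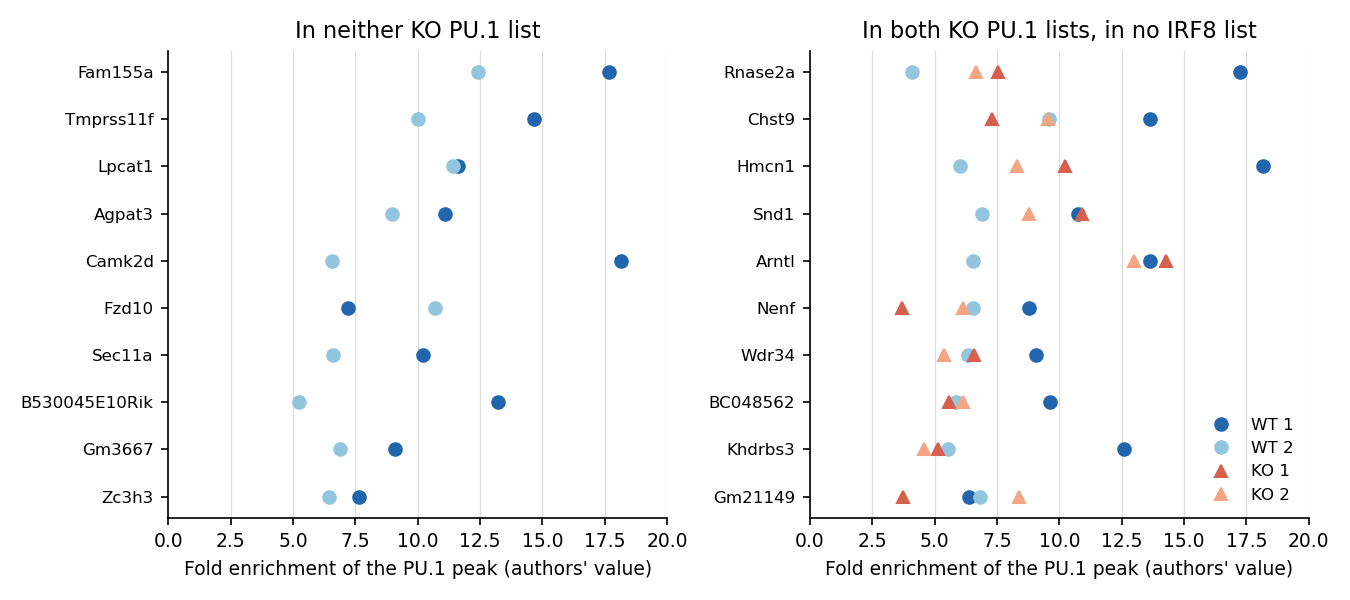
Fold enrichment of the PU.1 peak as the authors list it (x axis) for the 10 strongest regions in neither IRF8KO PU.1 list (left) and the 10 strongest in both IRF8KO lists and no IRF8 list (right), each row 1 region. Circles are WT and triangles IRF8KO libraries; the regions at Fam155a and Tmprss11f have WT circles at 10.0 and above and no triangle, and Arntl has IRF8KO triangles at 13.0 and 14.3.

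The strongest regions of the whole set included an intronic region of Mb21d2, chr16:28911402-28911942, with a fold of 18.4 and 11.5 in WT and 12.4 in both IRF8KO libraries. An intergenic region nearest Alox15, a lipoxygenase gene, had 20.2 and 10.9 in WT and 14.6 and 13.4 in IRF8KO. It kept H3K4me1 in 4 of 4 libraries and was listed for H3K27ac in 2 of 2 WT and 0 of 2 IRF8KO libraries. A region in Rab26, a small GTPase gene, close to the Traf7 start had 6.08 and 16.9 in WT and 5.22 and 22.2 in IRF8KO libraries, and 2 P14 and 2 macrophage lists but no adult list held IRF8 there. Regions at Rab31, a small GTPase of vesicle traffic, Tjp1, a tight-junction protein, and Psmg3, a proteasome assembly factor, completed the 10 strongest with Fam155a, Tmprss11f, Rnase2a and Chst9. Between WT and IRF8KO no test of a single region was made, since the lists give no counts.

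Enhancer marks were listed at most of the regions but at fewer than at PU.1 regions with IRF8. H3K27ac was listed at 82.4% and 80.2% in the WT libraries, a mean of 81.3% ± 1.57 (SD, n = 2), against 96.3% and 94.4% with IRF8. H3K4me1 was listed at 93.6% and 91.9%, against 97.4% and 96.1%. Over the 4 libraries of both genotypes the difference was -14.7 points for H3K27ac and -4.59 points for H3K4me1. Each had the same sign in 4 of 4 libraries, with p = 0.125 (adjusted p = 0.225), the smallest an exact sign-flip test of 4 libraries can give. With equal PU.1 strength it was -12.4 and -4.11 points. Both WT H3K27ac lists held 507 regions (75%; 90.3% of all 5359), and neither held 84 (12.4%; 3.15% of all), 30 of them in the chromosome 5 cluster. Without the cluster the WT libraries listed H3K27ac at 87.6% and 83.6%, and both listed it at 79.7% of 636. H3K4me1 in both WT lists was found at 603 (89.2%; 94.1% of all), in neither at 25 (3.7%; 1.55% of all), and H3K4me1 in both with H3K27ac in neither at 50 (7.4%; 1.79% of all), of which 20 lay outside the cluster. Only 16 regions had neither mark in WT (2.37%; 0.616% of all).

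Of the 254 regions with no adult IRF8 peak at all, 216 lay outside the chromosome 5 cluster. Both WT H3K27ac lists held 63.8% of the 254 without any adult peak and 81.6% of the 418 with 1. A start lay within 1 kb in 11.4% and 22.2%, and neither knockout PU.1 list held 42.9% and 35.6%. Outside the cluster, 75% of the 216 regions without any adult peak had H3K27ac in both WT lists and 50% were in neither knockout list. Single-list regions differed by library, with H3K27ac in both WT lists at 80% of the 35 listed by adult replicate 1 alone, 85.9% of the 348 of replicate 2 and 40% of the 35 of replicate 3. These are descriptions of subsets that the IRF8 lists define, and adult replicate 3 is the only adult IRF8 library of batch 2.

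In IRF8KO microglia H3K27ac was listed at 57.8% and 29.9% of the 676 regions, a mean of 43.9% ± 19.8 (SD, n = 2). Both values were below both WT values, a difference of 37.4 points (exact permutation p = 0.333, the smallest possible). Replicate 2 of the knockout held 8572250 fragments and the shortest H3K27ac list. Without it the difference was 23.4 points, and with lists of equal length 30.5. The knockout values for regions with IRF8 were 74.5% and 43.8%. Their mean was 95.3% in WT and 59.2% in IRF8KO libraries, so a fall of similar size was seen in both sets. H3K4me1 was listed at 87.3% and 91.6% in IRF8KO libraries, both below the lower WT value of 91.9%. Regions with IRF8 also had lower values in IRF8KO libraries, 93.5% and 95.6%, against 97.4% and 96.1% in WT. At the 676 regions the difference was 3.33 points (exact permutation p = 0.333). It was 1.18 points without IRF8KO replicate 1, 5.47 points without replicate 2 and 5.03 points with lists of equal length. H3K4me1 in both WT and neither IRF8KO library was found at 12 regions (1.78%; 1.57% of all).

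H3K27ac went with PU.1 in the knockout. Of the 507 regions with H3K27ac in both WT lists, 139 had it in neither knockout list (20.6% of the 676; 17.2% of all 5359). That is 27.4% of the 507, against 18.04% of the marked regions with IRF8. Where PU.1 was in neither knockout list that share was 40.9% (81 of 198), and where PU.1 was in both it was 14.7% (25 of 170). In regions with IRF8 the values were 38.3% and 9.97%. PU.1 and H3K27ac were both missing from all knockout lists at 130 regions (19.2%; 10.9% of all). PU.1 strength differed between these subsets, and its part in the result was not tested.

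Gene lists held shares of these regions near that of all PU.1 regions, or too few PU.1 regions to tell. Of 49 PU.1 regions at the homeostatic genes listed, 4 had no adult IRF8 consensus (8.16%; 12.6% of all PU.1 regions). They were at Mertk, a receptor kinase for engulfing apoptotic cells, Bin1, a membrane-curving adaptor, Fcrls, an Fc receptor-like protein, and, at a distance, Sall1, the zinc-finger factor of microglial identity. The Mertk intron region had a PU.1 fold of 7.57 and 5.17 in WT and 4.76 and 4.97 in IRF8KO libraries, with IRF8 in 1 of 3 adult, 1 of 3 P14 and 2 of 3 macrophage lists. The regions at Bin1 (6.05 and 6.21 in WT) and 341550 bp from the Sall1 start (4.54 and 3.81 in WT) were in neither knockout PU.1 list. Fcrls had 9.58 and 4.48 in WT and 4.39 in IRF8KO replicate 1 only.

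Among 25 myeloid transcription factor genes, 7 of 69 PU.1 regions had no adult IRF8 consensus (10.1%; 12.6% of all PU.1 regions). A region nearest Klf4, in the noncoding gene Gm12506 91063 bp away, had 8.07 and 5.17 in WT and 10.6 and 11.1 in IRF8KO libraries. IRF8 was listed there in 1 of 3 adult, 3 of 3 P14 and 3 of 3 macrophage libraries, and H3K27ac in all 4. Mef2a had 2 such regions. The intronic one, chr7:67318678-67319116, had 5.42 and 3.45 in WT and 7.68 and 9.95 in IRF8KO libraries, with no IRF8 list, no H3K27ac list and H3K4me1 in all 4. The intergenic one had 6.93 and 4.83 in WT and 4.97 in IRF8KO replicate 2 alone. The ETS-family genes Etv6 and Ets2 had regions in both knockout lists, and Ets1, with 7.06 and 5.86 in WT, in 1. None of the regions named here for these genes was missing from both knockout lists.

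The remaining lists held small numbers of PU.1 regions, so their counts say little beside the overall 12.6%. At innate receptor and signalling genes 2 of 33 PU.1 regions had no adult IRF8 consensus (6.06%), in an intron of Plcg2, a phospholipase of immune receptor signalling, and in a UTR exon of C3ar1, the C3a complement receptor. Each was in 1 of 2 knockout lists. At disease-associated microglia genes it was 0 of 16, at lysosome genes 0 of 12, at interferon and antigen presentation genes 0 of 4 and at peritoneal macrophage genes 0 of 5. Of 3 PU.1 regions at astrocyte genes 1 was at Slc1a3, a glutamate transporter, and it was in neither knockout list. Of 3 at endothelial genes 1 was at Pecam1, an adhesion molecule also made by myeloid cells, and it was in both.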

How the data were processed

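The deposited files are peak lists per library, called singly against mm10 with MACS 2.2.7.1 (PU.1, IRF8) or 2.2.6 (marks), per the file headers; the submitters' processing notes also name Bowtie2 and Trim Galore. Per the file headers, the PU.1, IRF8 and H3K27ac lists used q cutoffs and the H3K4me1 lists a p cutoff of 0.01 and a minimum length of 1000 bp. Each peak carries the authors' pileup (signal at the summit), fold enrichment over the local background and −log10 p and q as deposited; these values describe peaks within a list and give no read counts. A region that a list does not name may still hold signal below the cutoff. Libraries, not regions, are the units of every test. IgG libraries and reads were not used here.

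Entries that overlap were merged within a list, lists were merged across libraries, and an overlap of at least 1 bp counted as presence. The genome was GRCm38.p6, in whose chromosome lengths all peaks fit. Genes are from GENCODE vM21. Exact permutations over libraries were two-sided and adjusted over 9 tests. Named regions were the 10 highest by mean percentile of −log10 p in the WT PU.1 lists, the 10 highest in neither knockout list, the 10 highest in both knockout lists and no IRF8 list, and every region at a listed gene. A region chosen by these rules is not reported here. A region takes the name of the gene it lies in or else of the nearest protein-coding start. The regions, gene lists and rules were chosen with earlier results of these data known. The scripts (Python 3.11.15, pandas 2.3.3, SciPy 1.17.1) were tested on simulated regions and libraries.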

Additional observations from a re-analysis of the deposited data

How the results depend on the processing

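The size of the set depends on which lists must hold a peak. Of the planned settings, an IRF8 peak in any 1 adult library left 254 regions, of which 42.9% were in neither knockout PU.1 list. Requiring all 3 left 1808, with 30.0%. A −log10 p of at least 10 in every PU.1 and IRF8 list left 327, with 32.4% against 27.6% of the regions with IRF8. Leaving out 1 adult IRF8 or WT PU.1 library gave 852 to 6228 regions, and leaving out these or 1 knockout library gave 30.3 to 84.1% without IRF8 and 22.4 to 38.4% with IRF8 in neither knockout list. Counting regions absent from at least 1 knockout list gave 64.8% and 45.5%. Removing chromosome Y, the mitochondrial sequence, scaffolds and regions in 20 or more lists together gave 28.9% for regions with IRF8 and a difference of 9.28 points. The 25 lists include the knockout PU.1 lists, and 0 regions without IRF8 are in 20 or more, so part of this move is built into the filter. The differences from regions with IRF8 in absence from knockout, in both marks and in IRF8 lists kept their sign in every setting run. Within single strata of PU.1 strength the difference in absence from knockout did not always keep it.

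For IRF8 lists cut to equal length, P14 minus P9 was -0.345 points and macrophages minus P9 0.493. Leaving out single libraries gave 7.8 to 20.5 points for P14 minus P9, 12.5 to 21.7 for macrophages minus P9 and -4.14 to 8.58 for macrophages minus P14, with p of 0.0667 or 0.1 at the lowest by exact permutation for the first pair of comparisons, since fewer libraries allow no less. Macrophage batch 1 alone gave 21.7 points over P9. Batch 2 alone gave 5.73 over P9 and -10.5 against P14. P9 and P14 carry no batch label. A start within 500 bp was found for 13.6% and 21.2% (with IRF8), within 5 kb for 40.1% and 51.1%, and a protein-coding start within 1 kb for 15.4% and 23.2%.

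WT and knockout libraries share replicate numbers, but their deviations correlated by only 0.016 (H3K27ac) and 0.0194 (H3K4me1), and 2 pairs cannot show a pairing. With the replicate block the WT minus knockout differences were 37.4 points for H3K27ac and 3.33 points for H3K4me1 (p = 0.5 each, exact permutation). Leaving out the chromosome 5 cluster was added after the data were seen, and it changed no direction or side of a threshold among the results. The lists give no value for a region they do not name, and list length did not follow depth alone: P14 replicate 3 had 24365583 fragments and 9552 entries, and adult IRF8 replicate 1 had 7510600 and 24612. The part of depth in a missing peak was not tested.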
